A study of Caenorhabditis elegans with 2 samples.

Results

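The regions described here are those listed for EFL-1, peaks together with background, in the piRNA domains of chromosome IV of Caenorhabditis elegans. They were chosen by position alone: every region of the pooled relaxed list whose summit lay from 4500 to 7000 kb (domain 1) or from 13500 to 17200 kb (domain 2) of chromosome IV in build ce11. There were 2000 such regions of 30000 in the list, 760 in domain 1 and 1240 in domain 2. Of these, 120 also stood in the authors' optimal list, 62 in domain 1 and 58 in domain 2, out of 2498 optimal peaks in the genome. The remaining 3650 relaxed regions of chromosome IV, 315 of them optimal, are the regions they are set beside.

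The study mapped by ChIP-seq where EFL-1 sits on the genome of whole young adult worms. The worms were of mixed sex and of strain YL445, which has the mutation unc119(ed3)III and the insertion vrIs81. In vrIs81 the promoter pPIE-1, of a germline gene, drives EFL-1 fused to GFP FLAG with the 3'UTR of EFL-1, next to a rescuing unc-119 (+) copy, and both libraries carry all of these. There was 1 group of 2 biological replicates, and no second genotype, stage or treatment, so that every comparison here is between places in the genome. The labels name the antibody by efl-1 and the description of the experiment by eGFP. The fragments selected were 150 to 350 bp by label. A control library is mentioned in the labels and was not analysed here. A whole worm holds many tissues, and these lists do not tell in which cells a region was bound.

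EFL-1 is an E2F protein of the worm; E2F transcription factors bind DNA as a dimer with a DP protein and act on genes of the cell cycle, of oocytes and of early embryos. piRNAs, called 21U-RNAs in the worm after their length and first base, are small RNAs bound by the Piwi protein PRG-1 in the germline, where they silence foreign transcripts. Most are transcribed one by one by RNA polymerase II from very short genes packed into 2 large stretches of chromosome IV, many of them behind a conserved upstream motif. The annotation bore out the label of the domains: of 15363 annotated piRNA genes, 14714 (95.8%) were on chromosome IV and 14204 were inside the 2 domains, which is 96.5% of those on chromosome IV. Domain 1 held 2816 piRNA genes, or 1126 per Mb, and domain 2 held 11388, or 3078 per Mb, against 45.2 per Mb in the rest of the chromosome.

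The sequences on which the description of the peaks turns are the E2F core at the summits of the strongest peaks. The core was searched on both strands in 4 forms, which are TTCCCGC as the first, TTCGCGC as the second, TTGCCGC as another and TTGGCGC as the last. Among the 12 strongest peaks of each domain, 8 in domain 1 and 4 in domain 2 carried a core. Only some of these cores are printed, all of the forms TTCCCGC or TTCGCGC. That of ubc-9 (TTCGCGC, pooled signal 343) is left out, although its peak was stronger than that of lip-1 (340). The 29 bases around each printed core are given 5′ to 3′ on the strand that reads the core, with the core in capitals. They are from the RefSeq copy of WBcel235, which is ce11. In domain 1 they lay at chrIV:5469958-5469986 on the minus strand upstream of rme-2, at chrIV:6421386-6421414 on the minus strand upstream of puf-11 and at chrIV:6842672-6842700 on the minus strand upstream of lip-1. In domain 2 they lay at chrIV:13512340-13512368 on the plus strand upstream of puf-3, at chrIV:15025577-15025605 on the plus strand upstream of fcd-2 and at chrIV:15039667-15039695 on the plus strand just inside hrpu-1. Each stretch occurred once in the genome.
rme-2: ttaggcaaaaaTTCGCGCcttaaaatgaa
puf-11: aatcccaaaatTTCCCGCgcaaaatgaaa
lip-1: aaattaattttTTCCCGCgtttgaaatta
puf-3: aaatccaaaatTTCCCGCgcaaaaacgaa
fcd-2: aatatcgaaatTTCGCGCcatggagcatg
hrpu-1: tttttccccatTTCCCGCcaaaaaaattc
The windows of puf-11 in domain 1 and puf-3 in domain 2, which belong to 1 gene family, shared 24 of 29 bases (82.8%). Over all 66 pairs of the 12 core windows at the named peaks the median was 43.1%, and the next most alike pair shared 19 bases. Over 101 bases centred on the 2 cores the identity was 46.5%.

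For contrast, the piRNA genes closest to the strongest peaks that touched any are shown with the first base of the mature RNA in capitals, 5′ to 3′ on the plus strand. They are 21ur-14324 at chrIV:14196315-14196335 and 21ur-5229 at chrIV:5967089-5967109. Upstream of 21ur-14324, at chrIV:14196259-14196287, lay the piRNA upstream motif CTGTTTCA, in capitals in the last line, starting 46 bp before the 5′ end of the piRNA. The other had no such motif in the 60 bp before it.
21ur-14324: Ttctctgtgcaaaaatttttt
21ur-5229: Tataatcatcttcaattttcc
21ur-14324 upstream: taaattatttCTGTTTCAcaatgactgaa

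The domains were covered by relaxed regions as densely as the rest of the chromosome but held fewer optimal peaks per length. There were 323 relaxed regions per Mb in the domains and 323 per Mb in the rest of chromosome IV. Optimal peaks numbered 19.4 per Mb in the domains, against 27.9 per Mb in the rest, a ratio of 0.694. The 2 domains differed: the ratio to the rest was 0.889 in domain 1, with 24.8 optimal peaks per Mb, and 0.562 in domain 2, with 15.7 per Mb. Each replicate's own 2498 highest regions, as many as the optimal list holds, gave a ratio of 0.793 in replicate 1, with 138 regions in the domains and 317 in the rest, and of 0.681 in replicate 2, with 120 and 321. Both replicates thus had fewer top regions per Mb in the domains than in the rest, and the ratio was lower in domain 2 than in domain 1 in both (0.713 against 0.912 in replicate 1, 0.542 against 0.887 in replicate 2).

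Read per region, 6.0% of the domains' relaxed regions were optimal (95% Wilson interval 5.04 to 7.13%), against 8.63% in the rest of chromosome IV (7.76 to 9.59%) and 8.33% in the whole list. The share was 8.16% (6.42 to 10.3%) in domain 1 and 4.68% (3.64 to 6.0%) in domain 2. These and all later intervals count regions or genes of single lists, which are not replicates of a condition, so they cover counting error only and no test between places was made. The 2 long pieces of chromosome IV around the domains were close to each other. The stretch left of domain 1 held 27.1 optimal peaks per Mb and the stretch between the domains 28.9 per Mb, while the short right tip held 5 peaks, or 17.0 per Mb.

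Measured per protein-coding gene, the domains and the rest were closer. The domains are poorer in such genes, with 193 per Mb in domain 1 and 124 per Mb in domain 2, against 207 per Mb in the rest of chromosome IV. A gene was called bound where an optimal summit fell into its promoter window, which runs from 1000 bp before to 200 bp after an annotated 5′ end. In the domains 113 of 941 protein-coding genes were bound, or 12% (10.1 to 14.2%), against 12.5% in the rest of chromosome IV and 12.6% in the genome. The share was 14.5% in domain 1 (70 of 482 genes, 11.7 to 17.9%) and 9.37% in domain 2 (43 of 459 genes, 7.03 to 12.4%). There were 12.75 optimal peaks per 100 protein-coding genes in the domains (12.86 in domain 1, 12.64 in domain 2) and 13.46 in the rest. The gene shares from the replicates' own top regions were 13.3% and 14.1% in domain 1, 9.59% and 9.15% in domain 2, and 12.1% and 12.4% in the rest, for replicates 1 and 2 in turn.

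**Figure D1:**
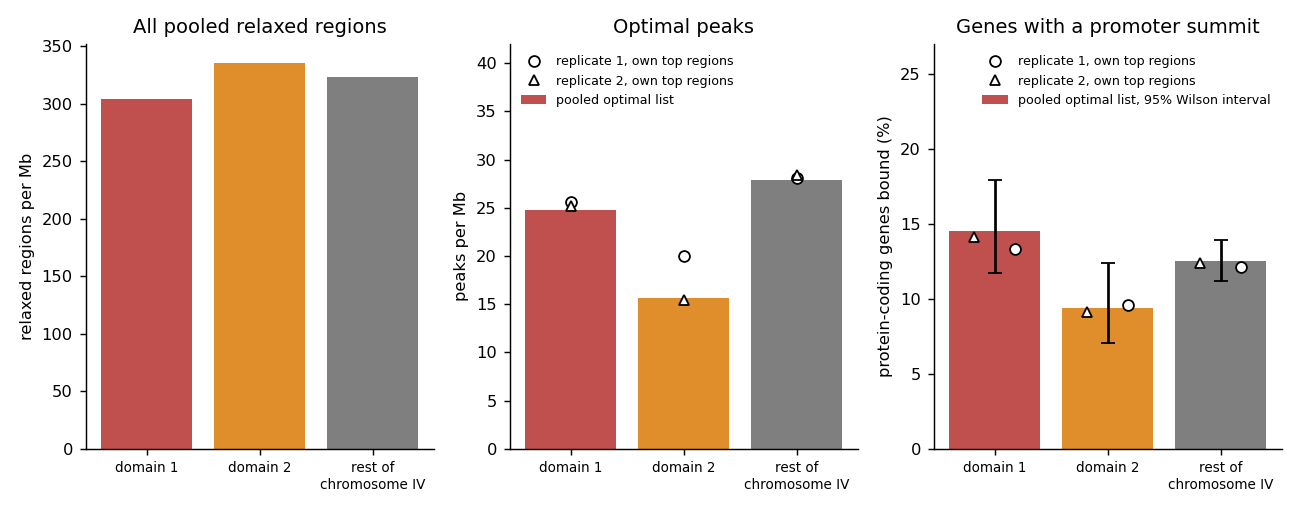
Density of regions of the EFL-1 lists in domain 1, domain 2 and the rest of chromosome IV. Panels give pooled relaxed regions (peaks with background) per Mb, optimal peaks per Mb and the percent of protein-coding genes with an optimal promoter summit. Bars are the pooled lists, open symbols each replicate's own top regions and error bars 95% Wilson intervals; relaxed regions are about equally dense in all 3 places, while optimal peaks per Mb drop to 15.7 in domain 2.

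Of the 12 strongest peaks of domain 1, 10 had their summit in the promoter window of a protein-coding gene. The authors' signal value is the height of a region in its own list on a scale not given in the sources used here, and values of different lists are not compared. The peak at chrIV:6756470-6756826, with its summit 673 bp upstream of usp-4, whose name marks it as a ubiquitin-specific protease, had a pooled signal of 972, with 213.5 in replicate 1 and 761 in replicate 2. It ranked 18th of the 30000 regions and was the strongest of the domains, although its summit had no E2F core within 50 bp. The peak at chrIV:5469761-5470138, 83 bp upstream of rme-2, the oocyte receptor that takes up yolk, had a pooled signal of 959, with 260 in replicate 1 and 696 in replicate 2. It ranked 21st in the pooled list, 16th in replicate 1 and 21st in replicate 2, so the replicates placed it nearly alike, and its core is the first printed above.

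Below these 2 peaks the signals of domain 1 dropped. The peak of puf-11, a Pumilio-family RNA-binding protein, had a pooled signal of 534 (166 in replicate 1, 369 in replicate 2) with its summit 209 bp upstream. A peak at T22D1.5, which lies inside T22D1.8 on the other strand, followed at 389, upstream of a 5′ end of each. The peak of ubc-9, the SUMO-conjugating enzyme, had 343, with 51.9 in replicate 1, where it ranked 442nd, and 293 in replicate 2, where it ranked 139th, so that the replicates placed it apart. The peak between Y17G9B.5 and rpl-20, a protein of the large ribosomal subunit, had 341, and that of lip-1, a MAP kinase phosphatase active in the germline, had 340 (104 in replicate 1, 230 in replicate 2). W03F8.4 had 282. After it came a step down to the 4 others named here, an intron peak of skn-1 at 152, C49A9.10 at 147, an intergenic peak at 146 and exos-2, a subunit of the RNA exosome, at 139.

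In domain 2 the strongest peak was 1 at chrIV:13512209-13512524 upstream of puf-3, the relative of puf-11, with its summit 196 bp before the gene. The gene lies inside afmd-2 on the other strand, and the summit was also 332 bp upstream of a 5′ end of afmd-2. Its pooled signal was 573, with 150 in replicate 1 and 420 in replicate 2, and its ranks in the 2 lists were close, 64th and 71st. The peak 104 bp upstream of fcd-2, the worm homologue of the Fanconi anaemia protein FANCD2, which acts in the repair of DNA crosslinks, had 463, with 71.2 in replicate 1 and 389 in replicate 2. There the ranks were apart, 267th in replicate 1 against 84th in replicate 2. The peak of dld-1, the dihydrolipoamide dehydrogenase of mitochondria, had 389, and the peak between sas-6, which builds the centriole, and Y45F10D.7 had 249.

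The other named genes of domain 2 spanned signals of 159 to 234.5. They were hrpu-1, the hnRNP U homologue (234.5, summit 88 bp inside the gene), Y41E3.1 (192), Y105C5B.20 (185), Y65A5A.2 (171), the elongation factor subunit eef-1B.2 (162), the rhomboid-related rom-4 (162) and ccar-1 (159). Across the 24 strongest peaks, 12 in each domain, 12 carried the E2F core at the summit, meaning within 50 bp, 8 in domain 1 and 4 in domain 2. Of the 24, none had a piRNA 5′ end within 100 bp; the nearest was 336 bp away, at Y105C5B.20.

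Signals of optimal peaks in the domains spread over the same range as elsewhere on the chromosome. The median pooled signal was 65.6 in the domains (63.9 in domain 1, 67.8 in domain 2) and 69.2 in the rest of chromosome IV, and the maxima were 972 and 1221. Of the domains' optimal peaks 4 were among the 100 strongest of the list, against 13 of the rest, which is 3.33% and 4.13% of each. Of the 120, 119 overlapped a region of replicate 1's list and all 120 a region of replicate 2's. The exception was the peak of Y57G11C.499, with a pooled signal of 37.6. Among each replicate's top regions were 96 of the 120 (80.0%) in replicate 1, 112 (93.3%) in replicate 2 and 90 (75%) in both, against 75.9%, 91.7% and 70.5% of the 315 in the rest.

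**Figure D2:**
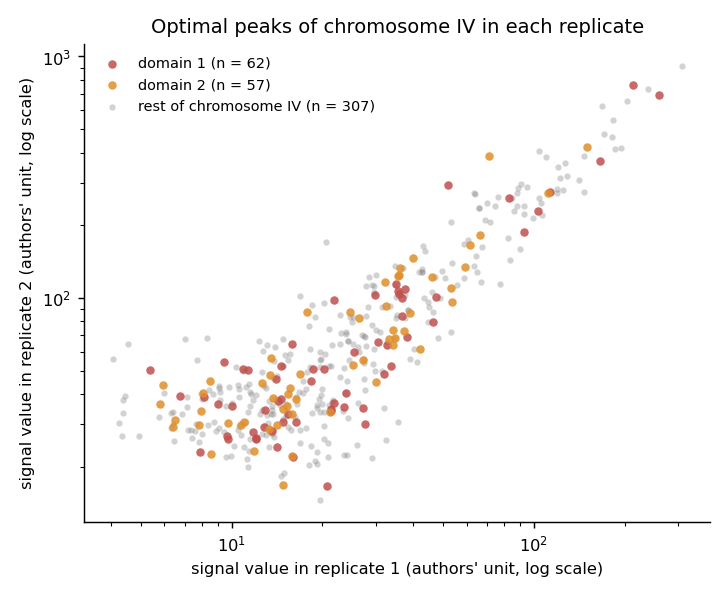
Authors' signal value of each optimal peak of chromosome IV in replicate 1 (x axis) and replicate 2 (y axis), both on log scales, for domain 1, domain 2 and the rest of the chromosome. The 119 domain peaks present in both lists run from 5.39 to 260 in replicate 1 and from 16.7 to 761 in replicate 2, inside the cloud of the 307 peaks of the rest.

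Over the 119 peaks measured in both replicates, the rank correlation of the signals was 0.791, and it was 0.788 over 307 peaks of the rest; both are descriptions over peaks chosen for being high in the pool of the same 2 libraries. Of the 60 stronger optimal peaks of the domains 59 were among the top regions of both replicates, and of the 60 weaker ones 31 were. Of all 2000 members, the lists of replicates 1 and 2 held 59.9% and 59.0%, and 13.2% were in neither, against 57.4%, 67.7% and 10.8% in the rest.

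Most optimal peaks of the domains were promoter peaks. The summit lay in the promoter window of a protein-coding gene for 91 of 120 (75.8%, 67.4 to 82.6%), against 70.5% (65.2 to 75.2%) in the rest of chromosome IV. Domain 1 had 85.5% (74.7 to 92.2%) and domain 2 65.5% (52.7 to 76.4%). In the domains 12.5% were intergenic, 5.83% in introns, 5.0% in untranslated or non-coding exons and 0.833% (1 peak) in a coding exon, against 13.0%, 10.2%, 5.40% and 0.952% in the rest. The median summit stood 199 bp upstream of the 5′ end in the domains and 214 bp upstream in the rest. Of the 91 promoter peaks 27 (29.7%) served genes on both strands, against 35.6% in the rest.

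The peaks without a promoter were weaker, with a median signal of 50.7 for 29 peaks, against 78.3 for the 91 promoter peaks. The 3 strongest of domain 1 were the peak in an intron of skn-1, which encodes a transcription factor supplied by the mother to the embryo, at 152, a peak 729 bp from T19E7.6 at 146 and a peak over the non-coding RNA B0350.73, near a tRNA gene, at 55.9. In domain 2 they were a peak at an annotated pseudogene at 171, a peak 1809 bp from Y65A5A.1 at 146 and a peak in a non-coding part of an exon of itsn-1, an endocytosis scaffold, at 112. In the domains' regions outside the optimal list the promoter share was 25.4% and the intergenic share 34.9%, against 35.5% and 18.7% in the rest. Among optimal peaks 5 of 62 were intergenic in domain 1 (interval 3.49 to 17.5%) and 10 of 58 in domain 2 (9.64 to 28.9%), shares below and above the 13.0% of the rest. Outside the optimal list it was 22.9% in domain 1 and 42% in domain 2, both above the 18.7% of the rest.

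The E2F core stood at a similar share of optimal summits in the domains and elsewhere on the chromosome. A core lay within 50 bp of 38 of 120 summits (31.7%, 24.0 to 40.4%), against 99 of 315 (31.4%, 26.6 to 36.8%) in the rest of chromosome IV. Windows 500 bp to either side of the same summits held it in 3.75% and 4.13%, and all windows of 101 bp laid end to end held it in 2.67% of the domains and 3.05% of the rest. The share was 27.4% in domain 1 and 36.2% in domain 2. Among the 120, TTCCCGC was found at 13, TTCGCGC at 11, TTGGCGC at 12 and TTGCCGC at 4 summits, with some summits holding more than 1 form. Peaks with a core had a median signal of 102.9, against 60.03 for those without, and the core was at 40.0% of the 60 stronger and 23.3% of the 60 weaker peaks. Among the 2498 highest regions of replicate 1's list, 138 lay in the domains, and 21.7% of these held the core. For replicate 2's list, counted in the same way, it was 30.0% of 120. A match of the letters is a description and not a measured binding site.

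Optimal peaks of the domains had a piRNA gene near the summit less often than the other regions there. A piRNA 5′ end lay within 100 bp of 3 of 120 optimal summits (2.5%, 0.854 to 7.09%), against 585 of 1880 summits outside the optimal list (31.1%, 29.1 to 33.2%). The windows 500 bp to either side gave 7.5% (4.8 to 11.5%) for the optimal peaks, an interval that overlaps that of the summits, and 31.7% for the others. The median distance from an optimal summit to the nearest piRNA 5′ end was 3004 bp, against 223 bp for the other regions. In domain 2, where piRNA genes are densest, the shares were 1.72% at optimal summits, 11.2% beside them and 39.8% at the other regions; in domain 1 they were 3.23%, 4.03% and 16.3%. In the rest of chromosome IV a piRNA 5′ end was within reach of 2 of 315 optimal summits (0.635%) and of 0.87% of the other summits.

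The replicates differed in this number. In replicate 1, 16 of its 138 top regions in the domains (11.6%) had a piRNA 5′ end within 100 bp, with 13.4% in the windows beside them; in replicate 2, 5 of its 120 (4.17%) had one, with 7.5% beside them. In both replicates the top regions were below the other regions of the same list, at 37.1% in replicate 1 and 23.5% in replicate 2.

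**Figure D3:**
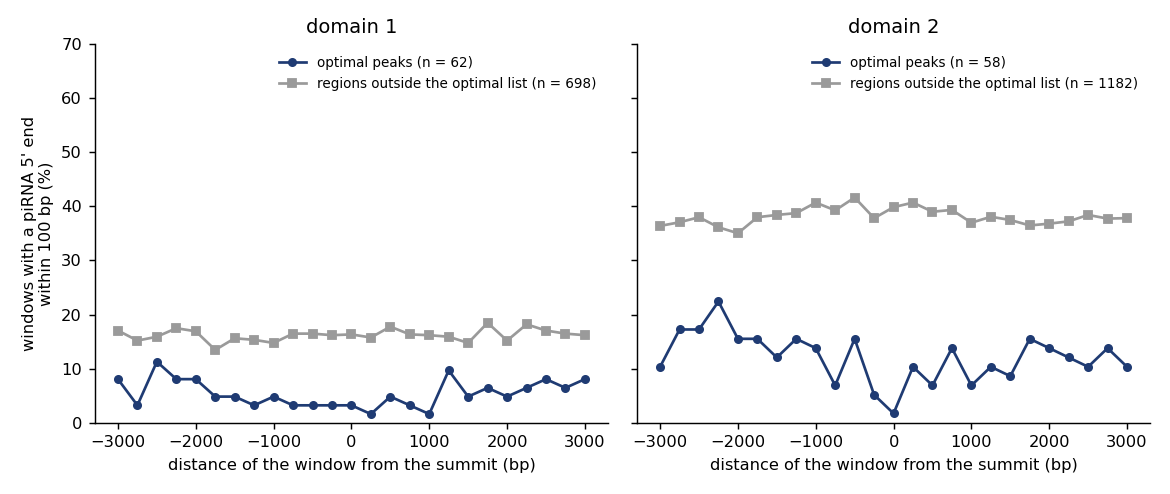
Percent of windows that hold an annotated piRNA 5′ end within 100 bp, as the window is moved from 3000 bp on one side of the summit to 3000 bp on the other, for optimal peaks and for regions outside the optimal list of domain 1 (left) and domain 2 (right). The line of the optimal peaks of domain 2 has its lowest point, 1.72%, at the summit. That of domain 1 has no such dip, at 3.23% at the summit and 1.61% at 250 bp and 1000 bp to one side, and the regions outside the list are at 39.8% in domain 2 and 16.3% in domain 1 at the summit.

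The 3 optimal peaks with a piRNA 5′ end within 100 bp were weak. The peak 106 bp upstream of F02H6.2 had a pooled signal of 69.5 (16.9 in replicate 1, 48.4 in replicate 2), an E2F core, and 21ur-14324 at 55 bp from its summit. The peak over B0350.73 had 55.9 (14.6 and 38.3), with 21ur-5229 at 61 bp. The peak 49 bp upstream of T11F8.1 had 44.0 (9.01 and 36.5), with 21ur-15555 at 67 bp, and ranked 4287th in replicate 1. Outside the optimal list, the 3 strongest regions with such an end had signals of 32.7 at a pseudogene, 30.1 at the snRNA gene smy-8 and 27.1 upstream of Y73F8A.26, below the lowest optimal signal of 34.99.

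Counted per piRNA gene, 3 of the domains' 14204 (0.0211%, 0.00718 to 0.0621%) had an optimal summit within 100 bp, against 2 of 510 (0.392%, 0.108 to 1.42%) in the rest of chromosome IV. With replicate 1's own top regions the domains' share was 0.176%, and with those of replicate 2 it was 0.0352%. Any relaxed region, optimal or not, lay within reach of 6.55% of the domains' piRNA genes and 6.86% of those of the rest. The motif CTGTTTCA, searched on both strands, stood in the 60 bp before 34.8% of the domains' piRNA genes (39.7% in domain 1, 33.6% in domain 2). It lay within 50 bp of 0 of 120 optimal summits, for which the interval reaches up to 3.1%, against 6.97% of the other summits of the domains and 7.34% of all 101-bp windows there. In the windows 500 bp beside optimal summits it was in 3.33%. It was at 2.17% of the domains' top regions in replicate 1 and at 0% of those of replicate 2, and without the last base of the motif the share at optimal summits was 1.67%. The full motif was at 0 of 315 optimal summits in the rest of chromosome IV, where 0.762% of windows hold it. The optimal peak of F02H6.2 had the motif of 21ur-14324 nearby but more than 50 bp from its summit.

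The strength of a region and what lay at its summit went together in the domains. The 1880 members outside the optimal list were ranked by pooled signal and cut into 4 groups of 470. From the strongest group to the weakest, the share with a piRNA 5′ end within 100 bp was 19.6%, 33.0%, 35.7% and 36.2%, after 2.5% for the optimal peaks. The share with an E2F core was 7.66%, 3.83%, 2.98% and 2.98%, after 31.7%. Base composition moved with it: the median GC content of the 101 bp at the summit was 42.6% for the optimal peaks and 31.7% for the others in the domains, against 42.6% and 34.7% in the rest, and its part in these shares was not tested.

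**Figure D4:**
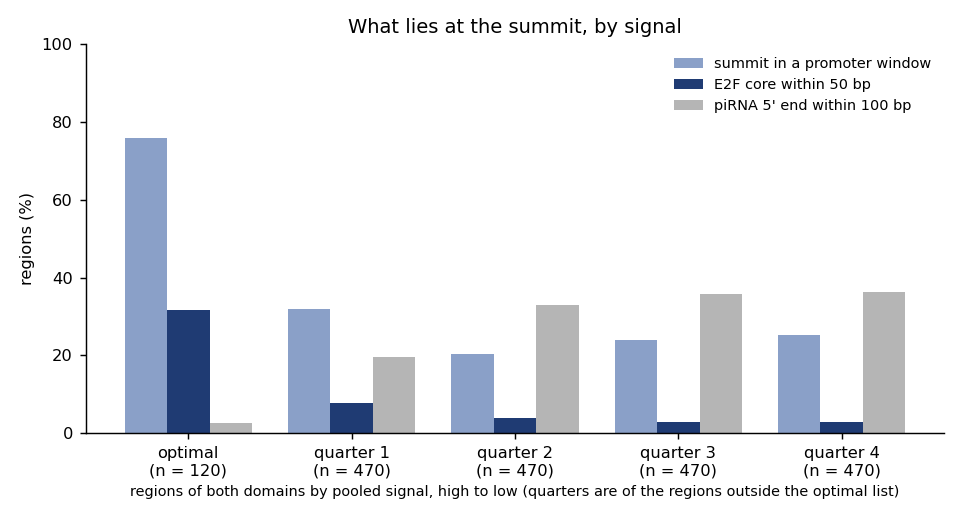
Percent of regions in both domains whose summit lay in a promoter window, carried the E2F core within 50 bp or had a piRNA 5′ end within 100 bp, for the 120 optimal peaks and 4 groups of 470 regions outside the optimal list, ordered from high to low pooled signal. The promoter and E2F bars are highest for the optimal peaks (75.8% and 31.7%), and the piRNA bar is lowest there (2.5%) and reaches 36.2% in the weakest group.

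Optimal peaks were thinner where piRNA genes were dense, and less so within domain 1 than within domain 2. In 62 stretches of 0.1 Mb, the 31 richest in piRNA genes held 43 optimal peaks (13.9 per Mb) and the 31 poorest 77 (24.8 per Mb). Most of the richest lay in domain 2 and most of the poorest in domain 1, so this split largely sets domain 2 beside domain 1. In the richest 9 of 31 stretches had no optimal peak, against 2 of the poorest. Split within each domain, it was 1 against 1 in domain 1 and 7 against 2 in domain 2. Over both domains, protein-coding genes were fewer in the richest stretches too, 369 against 572, and of those 9.21% and 13.8% were bound. In domain 2 alone the density was 10.5 per Mb in the 19 richest and 21.1 per Mb in the 18 poorest stretches, with 5.29% (10 of 189) and 12.2% (33 of 270) of genes bound. In domain 1 it was 22.3 and 27.5 per Mb, with 13.2% and 15.6% bound. Relaxed regions numbered 319 per Mb in the richest and 326 per Mb in the poorest stretches over both domains, but the domains went opposite ways. In domain 2 there were 294 per Mb in the richest and 378 per Mb in the poorest stretches, and in domain 1 there were 322 and 284 per Mb. Across the 62 stretches the rank correlation of optimal peaks was -0.46 with piRNA genes and 0.34 with protein-coding genes. That of piRNA with protein-coding genes was -0.65. Within domain 1 the same values in turn were -0.27, 0.14 and -0.36, and within domain 2 they were -0.48, 0.28 and -0.54. The densities of the 2 kinds of gene thus cannot be told apart here as partners of the peaks, and neighbouring stretches of 1 chromosome are not independent.

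**Figure D5:**
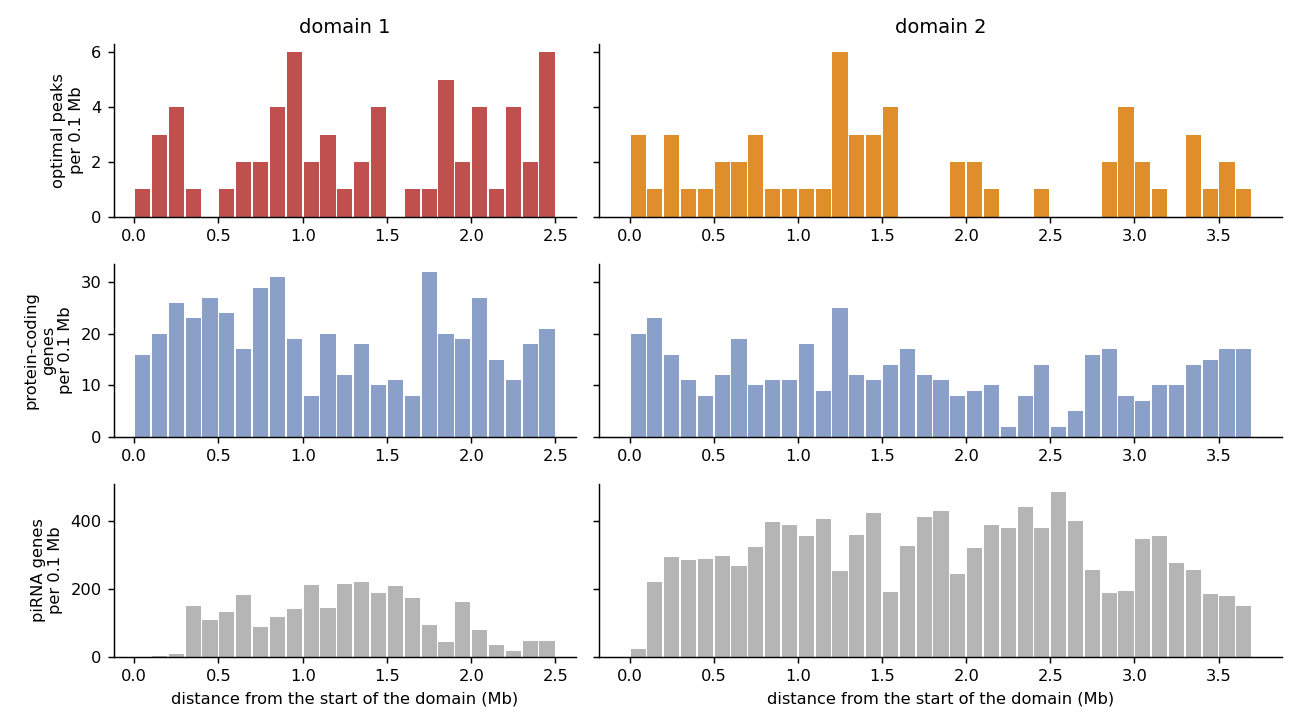
Optimal peaks (top), protein-coding genes (middle) and annotated piRNA genes (bottom) per 0.1 Mb, by distance from the start of domain 1 (left) and domain 2 (right). Optimal peaks stand in 62 stretches with 0 to 6 each, and 9 of the 11 stretches without one are among the 31 richest in piRNA genes. Most of those 31 lie in domain 2.

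Among the domains' protein-coding genes, bound ones seldom held piRNA genes. A piRNA 5′ end lay inside the body of 12 of 113 bound genes (10.6%, 6.18 to 17.6%) and of 429 of 828 genes that were not bound (51.8%, 48.4 to 55.2%). The gap was seen in domain 1 (8.57% against 44.9%) and in domain 2 (14% against 58.7%), and with each replicate's own top regions, which gave 13.0% against 51.3% in replicate 1 and 10% against 51.7% in replicate 2. The median gene length was 2193 bp for bound and 1980 bp for other genes. At the point 200 bp upstream of the gene start a piRNA 5′ end was within 100 bp for 9.73% of bound and 24.4% of other genes. Of the 12 bound genes with piRNA genes inside, the fullest, named after their values were seen, were nkcc-1, a cation-chloride cotransporter, with 26 and a peak of 57.1, fbxa-83 with 10 and a peak of 36.4, and dnbp-1 with 9 and a peak of 38.4.

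A few gene families were counted, and they are read against the 12% of all protein-coding genes of the domains, 12.5% of the rest of chromosome IV and 12.6% of the genome that were bound. Of the 113 bound genes of the domains 9 were in one of these families. All 5 ribosomal protein genes there were bound, rpl-20 and rps-25 in domain 1 and rpl-29, rps-18 and rpl-18 in domain 2, against 8 of 12 in the rest of chromosome IV. None of 68 chemoreceptor genes was bound, against 0 of 81 in the rest; nor were the 9 major sperm protein genes (0 of 9 in the rest) or the 9 C-type lectin genes (0 of 44 in the rest). Of 7 F-box genes 2 were bound, fbxa-215 with a signal of 86.1 and fbxa-83 with 36.4, against 0 of 20 in the rest. The fbxa-83 peak (8.58 in replicate 1, 22.7 in replicate 2) was among the top regions of neither replicate. Of 5 nuclear hormone receptor genes 1 was bound, nhr-249 with 44.6 (6.78 in replicate 1 and 39.4 in replicate 2), against 0 of 28 in the rest. The only him gene, him-3, a protein of the meiotic chromosome axis, was bound, against 0 of 2 in the rest. Histone, MCM and MATH or BTB genes had no member in the domains, and in the rest 1 of 22, 0 of 1 and 0 of 1 were bound. With these small numbers no family can be called particular to the domains.

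Of 18 listed genes of the piRNA pathway 16 were found in the annotation, and 0 of them lay in the domains. Of the 16, 7 were bound, against 12.6% of all protein-coding genes. They were led by hrde-1, the nuclear Argonaute of inherited silencing, with a pooled signal of 586, tofu-6, of the complex that processes piRNA precursors, with 425, csr-1, an Argonaute of expressed germline genes, with 339 on chromosome IV between the 2 domains, and pid-3, a partner of tofu-6, with 185.5. The gene of the Piwi protein itself, prg-1, had 36.9 and pid-1 had 36.8, both near the end of the optimal list. Not bound were prde-1, snpc-4, tofu-1, tofu-2, tofu-4, tofu-5, erh-2, parn-1 and henn-1.

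The borders and the end of the optimal list set which regions were described. The optimal peaks nearest the borders on the inner side were those of sar-1 at 13.7 kb (signal 78.3), of pgl-1 and him-3 at 22.7 kb (81.7), a coding-exon peak at 10.1 kb (55.3) and the itsn-1 peak at 73.9 kb (112). On the outer side the nearest were those of M01H9.3 (80.7), of klp-18 and cogc-2 (862, at 39.9 kb), an intron peak (121) and that of eelo-2 (424, at 49.9 kb). The weakest optimal member had a signal of 34.99 and lay 6 bp beyond the 3′ end of pgl-1, and the strongest member outside the list had 34.5 and lay 736 bp from srh-63.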

How the data were processed

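Both ChIP-seq replicates came from 1 group. The authors deposited narrowPeak lists in ce11 and ce10: relaxed regions (peaks with background, each list 30000 long) per replicate and for the pool, and an optimal list of pooled regions past an irreproducible discovery rate (IDR) threshold, per the deposited file descriptions. Each region carries the authors' signal value and a deposited −log10 q-value, which ran from 2.18 to 2.92 in the domains' optimal peaks and was not used to rank. The sources used here name no aligner, caller, signal scale, IDR threshold or read depth, so no depth-based interval could be made.

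From these lists, counts, shares (95% Wilson intervals) and medians were computed with Python 3.11.15, numpy 2.4.6, pandas 2.3.3 and scipy 1.17.1, and drawn with matplotlib 3.10.9; the counting code was tested on simulated data. Coordinates are 1-based in ce11; 0 regions ran past a chromosome end. Genes and piRNA genes are from Ensembl release 115. A peak was matched to replicate lists by an overlap of at least 1 bp. No test was made: there is 1 group, and regions are not replicates.

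Genes named are those at the 12 highest optimal peaks of each domain, the 3 highest without a promoter gene, up to 5 optimal and 3 other regions with a piRNA 5′ end within 100 bp, the regions at the list's edge, symbol-pattern families and piRNA pathway genes; others are said to be chosen later. Members and lists were chosen with earlier results of these data known. Alternatives were each replicate's own list, the upper 50% of the optimal list, other borders, windows and motifs, and the ce10 lists.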

Additional observations from a re-analysis of the deposited data

How the results depend on the processing

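No paired analysis was possible because the labels give 1 group, with no second group whose replicates could share a number. Of 90 recomputed values, 62 stayed within a limit set for each result and 28 moved further. For shares the limit was the Wilson interval, and for the peak count a fixed fold change. For the ratio of peaks per Mb and the median signal it was the standard deviation of the 2 replicates' values. The 2 median signals are on unlike scales, so that limit is rough. A change of direction was defined only for the ratio, which ran from 0.643 to 0.793 in its alternatives with 0 changes. With the upper 50% of the optimal list, the domains held 54 peaks, 2.70% of their relaxed regions, 6.48% of genes bound, a median signal of 135, 100% among both replicates' top regions, 0% of summits and 0% of piRNA genes within 100 bp of each other. The share among 1 replicate's top regions, 80.0 to 93.3%, was taken over the 120 pooled optimal peaks. Using each replicate's own list, with the other left out, the ratio of peaks per Mb was 0.681 to 0.793. The median signal was 17.4 to 48.5 (each on its own list's scale). Summits near a piRNA 5′ end came to 4.17 to 11.6%, E2F cores to 21.7 to 30.0%, and piRNA genes with a summit to 0.0352 to 0.176%. The higher piRNA and lower E2F values are those of replicate 1. Genes bound came to 14.5% with a window of 2000 bp upstream and to 8.93% with the nearest gene only. A reciprocal overlap of 50% left 60% of peaks among both replicates' top regions. With 50 bp in place of 100 bp, 0% of summits and 0% of piRNA genes were near each other, and with 250 bp, 8.33% and 0.12%. The longer E2F core was at 15.0% of summits. The cause of these shifts was not tested. With borders moved by 0.25 Mb, only the peak count, the ratio, the optimal share, genes bound and piRNA genes with a summit were recomputed. None of these moved beyond its limit, although the peak count was 93 with narrower and 152 with wider borders, against 120. The ce10 lists were used only for the peak count, the ratio and the optimal share, which also stayed within their limits. The share of bound genes with a piRNA 5′ end inside stayed at 6.56 to 13.0%; its alternatives and the shares in 1 replicate's top regions were chosen after seeing the data. With read depth unknown, a region missing from the optimal list cannot be called unbound.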

Other observations

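Several further bound genes of the domains, chosen after their values were seen, act in the germline or in small RNA pathways. The peak 108 bp from a piRNA 5′ end at slfl-4, which encodes a subunit of an enzyme that trims piRNA precursors at their 5′ ends, had a pooled signal of 53.2 (15.4 in replicate 1, 33.0 in replicate 2) and an E2F core. The peak of rsd-2, needed for RNA interference to spread, had 52.2 (8.07 in replicate 1, 40.3 in replicate 2), and that of gtsf-1, a partner of small RNA machinery, had 47.6 (10.99 in replicate 1, 30.8 in replicate 2). The peaks of rsd-2 and gtsf-1 were not among replicate 1's top regions. The peak shared by pgl-1, a P granule protein, and him-3 had 81.7 (32.0 in replicate 1, 48.6 in replicate 2), and that of tebp-2, which binds telomeres, had 61.5 (9.42 in replicate 1, 54.4 in replicate 2) with an E2F core. The tebp-2 peak too was outside replicate 1's top regions.

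Other bound genes of the domains, of various roles, were also chosen after their values were seen. The peak of zen-4, the kinesin of the central spindle, had 118 (21.8 in replicate 1, 98.0 in replicate 2), and the peak between tsr-2 and set-26 had 151.7 (53.5 in replicate 1, 96.3 in replicate 2). The peak between lsy-13 and mel-46, a maternal gene, had 107 (17.7 in replicate 1, 87.9 in replicate 2), and that of fan-1, a nuclease of crosslink repair, had 124.7 (29.8 in replicate 1, 103.0 in replicate 2). These are values of single peaks, and no enrichment of genes of any of these roles was computed.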
